A study of Mus musculus with 23 samples.

Results

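Ribosome-associated RNA of astrocytes was compared between injured spinal cords that had received a hydrogel depot with no growth factor in its label and injured cords that had received no depot. The libraries were chosen by their condition labels among the HA libraries: 3 labelled hydrogel CT and 4 labelled SCI only, 7 of the 23 libraries of the series. Of 9363 gene symbols in the HA table, 437 loci that collect reads of ribosomal RNA (Yam1, Lars2 and the Gm and Mir rows) were left out. Of 8679 protein-coding genes, 6166 were expressed highly enough to be tested, among 6276 genes tested in all. All mice carried mGFAP-Cre-RiboTag, in which Cre under a mouse Gfap promoter switches on a hemagglutinin (HA) tag on a ribosomal protein, and the genotype label of every library reads wild type. Young adult mice had a severe crush spinal cord injury (SCI) at thoracic level 10 and the middle 3 mm of the lesion was taken at day 14. The hydrogel CT mice had in addition a depot injected into the cord on day 2. CT is not explained by the labels, and the column headers name the group EmGel. The remaining HA group, hydrogel GF with 3 libraries, had the depot with growth factors. The series title names these as FGF and EGF and the column headers as BDNF and NT3, and this conflict was not settled here.

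Astrocytes around a spinal cord lesion become reactive: they enlarge, raise intermediate filaments such as Gfap, and form a border that walls off inflamed tissue. In the healthy cord they clear glutamate through the transporters Slc1a2 and Slc1a3, buffer potassium through Kcnj10, move water through Aqp4 and couple to each other through the connexins Gja1 and Gjb6. A RiboTag precipitate enriches the RNA that astrocyte ribosomes are translating, but RNA of other cells can be carried along.

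The SCI only libraries carry the numbers 9596, 9843, 9874 and 9935 and the hydrogel CT libraries 1724, 1759 and 1762. The treatment and the cohort that these number ranges may mark cannot be told apart. No label says that each number is a separate animal, and the p-values therefore measure how far single libraries spread, which may be technical. The loci of ribosomal RNA reads took 96.0% to 99.1% of the counts with SCI only and 53.7% to 73.4% with hydrogel CT. For protein-coding genes the share was 2.08% ± 1.32 in the SCI only group (SD, n = 4) and 34.3% ± 10.4 in the hydrogel CT group (n = 3). The groups did not overlap in it, and the exact two-sided permutation test over 35 assignments gave p = 0.0286, the smallest it can give. The depth that bears on genes was therefore 202299 to 780502 protein-coding counts with SCI only and 2846894 to 5800354 with hydrogel CT. With SCI only, 6742 ± 673 protein-coding genes were detected (SD, n = 4), and with hydrogel CT 8000 ± 277 (n = 3, exact permutation p = 0.0571). Levels are given as CPM, the counts of a gene per 1000000 counts outside the ribosomal RNA loci, scaled between libraries by the TMM method. A single count was worth 4.14 CPM in SCI only library 9935 and 0.193 CPM in hydrogel CT library 1762.

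Astrocyte markers led in both groups. The 27 analysed astrocyte markers summed to 109445 to 145365 CPM with SCI only and 108431 to 184009 CPM with hydrogel CT, more than any list of another cell type. A large part of this sum came from Mt1 and Mt2, which had 35841 and 26479 counts in SCI only library 9596, at 0.999 CPM per count. The sum is therefore no measure of purity. RNA of other cells was present in both groups. Oligodendrocyte and myelin markers summed to 10096 to 14257 CPM and 13460 to 26410 CPM, in that order. The sums for oligodendrocyte progenitor markers were 6011 to 7617 CPM with SCI only and 2883 to 4654 CPM with hydrogel CT, so these did not overlap. These sums are not corrected for GC content. Olig1, the progenitor marker of highest level, was higher with hydrogel CT after such a correction, as given below. Microglia and macrophage markers reached 9016 CPM in SCI only library 9874 and stood at 1068 to 3608 CPM in the rest of that group, against 542 to 2651 CPM with hydrogel CT. Neuron markers summed to 751 to 1433 CPM and 420 to 2692 CPM. Endothelial markers stood at 95.9 to 394 CPM and 137 to 267 CPM, with 4 of the list's 14 genes analysed here. Ependymal markers, at 348 to 696 CPM with SCI only and 96.9 to 222 CPM with hydrogel CT, did not overlap. Sums for pericyte and fibroblast markers (151 to 634 CPM and 117 to 291 CPM), Schwann cell markers (24.9 to 76.9 CPM and 15.2 to 40.5 CPM) and lymphocyte and neutrophil markers (5.79 to 543 CPM and 31.5 to 108 CPM) were low in both groups. No analysed marker was at 0 in all 7 libraries, and Slco1a4, an endothelial transporter, was at 0 in the 4 SCI only libraries. In such bulk RNA, fewer cells of a type and less RNA per cell cannot be told apart. The part of these cells in the differences below was not tested.

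Across the 6276 genes tested, 3 rose and 1 fell with hydrogel CT (edgeR quasi-likelihood test, Benjamini-Hochberg adjusted p below 0.05). That is 0.0478% of the genes in the upward and 0.0159% in the downward direction. Qk, an RNA-binding protein, and Mcl1, an inhibitor of apoptosis, were among those that rose, and Dlgap1, a postsynaptic scaffold protein, fell. With DESeq2 size factors in place of TMM, 1 rose, neither Qk nor Mcl1, and 1 fell (Dlgap1), and the median log2 difference of all genes tested shifted from 0.19 to -0.07. An unadjusted p below 0.05 was reached by 789 genes. When the fit held only the 7 libraries of the compared groups, 109 of 5608 genes passed, 75 higher (1.34%) and 34 lower (0.606%), all 4 genes called above among them. DESeq2's own test called 87 higher (1.39%) and 147 lower (2.34%), so that its calls were mostly lower. Without a filter on low counts edgeR called 12 higher (0.134%) and 1 lower (0.0112%), and with a minimum mean of 20 CPM 1 in each direction (0.0204%). With protein-coding genes alone the calls were 3 higher (0.0487%) and 1 lower (0.0162%), and with the ribosomal RNA loci kept 3 higher (0.0451%) and 10 lower (0.15%), most of the 10 being such loci. Where the text below says that the libraries did not overlap, all 3 hydrogel CT libraries stood above, or all below, the 4 SCI only libraries. This held for 742 genes (11.8%) in the upward and 425 (6.77%) in the downward direction. Gene counts of this kind are a description and are to be read against these shares.

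The direction of a gene followed the GC content of its transcripts. With the genes in 5 bins of equal size, the bin of lowest GC content, 33.8% to 44.1%, had a median log2 difference of 1.26, and 28.3% of its genes were higher with hydrogel CT without overlap. The median was 0.68, 0.23 and -0.36 in the next bins and -1.01 in the bin of highest GC content, 55.2% to 72.8%. In that last bin, 1.44% were higher and 19.3% lower without overlap. The mean GC content of the protein-coding genes, weighted by counts, was 51.6% ± 0.373 with SCI only (SD, n = 4) and 48.9% ± 0.330 with hydrogel CT (n = 3, exact permutation p = 0.0286). A correction for a smooth GC trend in each library brought the medians of the bins to between -0.16 and -0.01, as the plot of differences by GC content shows. Dlgap1 alone passed after it (edgeR, adjusted p = 0.0247, 0% higher and 0.016% lower), and 460 genes had an unadjusted p below 0.05. After division by that trend, 396 genes (6.32%) were higher and 334 (5.33%) lower without overlap. Corrected values below are named as such.

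**Figure D1:**
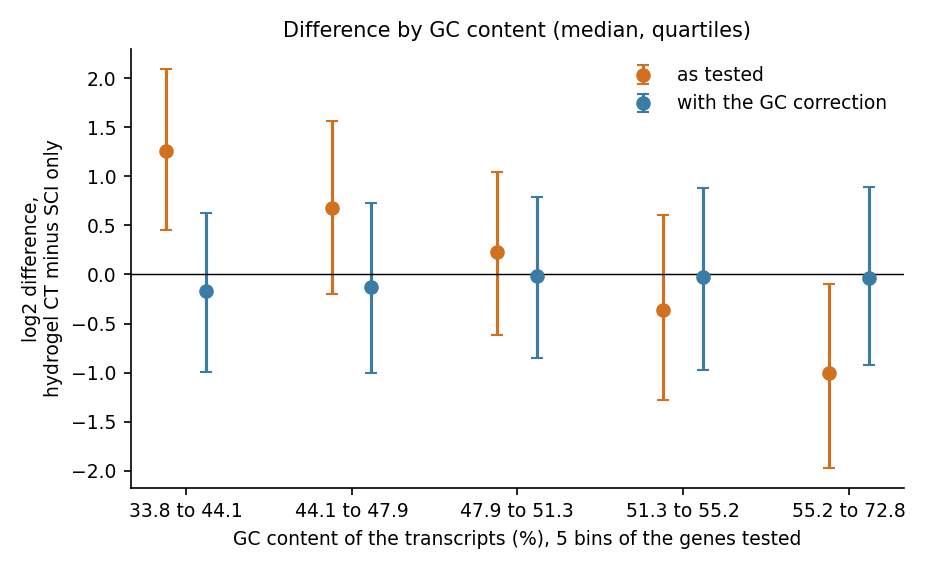
Median log2 difference between hydrogel CT and SCI only (y axis, bars: quartiles) in 5 equal bins of the genes tested by GC content (x axis, percent), as tested and with the GC correction. The medians run from 1.26 to -1.01 as tested and stay near 0 with the correction.

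Qk (ENSMUSG00000062078, mm10 chromosome 17, 10202601 to 10319854) encodes Quaking, an RNA-binding protein of glia that acts on splicing and stability of its target RNAs, many of them myelin genes. It stood at 1693, 1674, 1077 and 1185 CPM in SCI only libraries 9596, 9843, 9874 and 9935 and at 6379, 5670 and 7835 CPM in hydrogel CT libraries 1724, 1759 and 1762. All libraries are given in this order. The means were 1407 ± 322 (SD, n = 4) and 6628 ± 1104 CPM (SD, n = 3), with no overlap. Qk rose by 2.24 on the log2 scale (SE 0.39, edgeR adjusted p = 0.0291). Its GC content was low at 42.0%, and the corrected difference was 0.85 (SE 0.33, edgeR adjusted p = 0.571), a move of over 1.5 times, with no overlap after division by the trend. The hydrogel GF libraries 1685, 1687 and 1732 held 7131, 2458 and 6822 CPM.

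Mcl1 (ENSMUSG00000038612, chromosome 3, 95658788 to 95663176) is a short-lived member of the BCL2 family that blocks apoptosis at mitochondria. The SCI only libraries held 379, 136, 55.2 and 191 CPM and the hydrogel CT libraries 1554, 2174 and 899 CPM. Library 9596 was the highest of its group and 9874 the lowest, and the groups did not overlap, with means of 190.1 ± 137 (SD, n = 4) and 1542 ± 638 CPM (SD, n = 3). Mcl1 rose by 3.01 on the log2 scale (SE 0.52, edgeR adjusted p = 0.0291). With a GC content of 48.7%, near the median of 49.6% of all genes tested, it moved little on correction, to 2.65 (SE 0.52, edgeR adjusted p = 0.0968), but did not pass. In the hydrogel GF libraries Mcl1 was at 8692, 7594 and 6993 CPM. Of 16 tested genes on the list of BCL2 family and apoptosis genes, Mcl1 alone rose and none fell, and it alone was higher without overlap. Of all genes tested, 0.0478% rose and 11.8% were higher without overlap. The list's median log2 difference was 0.30, against 0.19 for all genes tested, and -0.28 corrected, against -0.07.

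Dlgap1 (ENSMUSG00000003279, chromosome 17, 69969073 to 70821413) was at 157, 608, 609 and 729 CPM in the SCI only libraries. In the hydrogel CT libraries it was at 4.62, 9.38 and 11.0 CPM. The lowest SCI only library, 9596, stood far above the highest hydrogel CT library, and the means were 526 ± 252 (SD, n = 4) and 8.33 ± 3.32 CPM (SD, n = 3). Dlgap1 fell by 5.96 on the log2 scale (SE 0.96, edgeR adjusted p = 0.0197), and the corrected difference was -6.76 (SE 1.06, edgeR adjusted p = 0.0247). In the 7 libraries, 97.0% of its 1009 counts lay on 1 transcript, Dlgap1-212, which GENCODE annotates as a retained intron (70561552 to 70719411). An antisense transcript, AC079441.1, overlaps exons of the gene, and whether the counting used strand is not given in the sources used here. With the counts at the ribosomal RNA loci as the total instead, Dlgap1 was at 7.90 to 15.3 counts per 1000000 with SCI only and 1.76 to 8.42 with hydrogel CT, so on that scale the groups overlapped. With 14, 31 and 57 counts in the hydrogel CT libraries, Dlgap1 passed the count filter only through other groups and had to be lower with hydrogel CT. Levels in hydrogel GF were 31.8, 139 and 81.7 CPM.

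**Figure D2:**
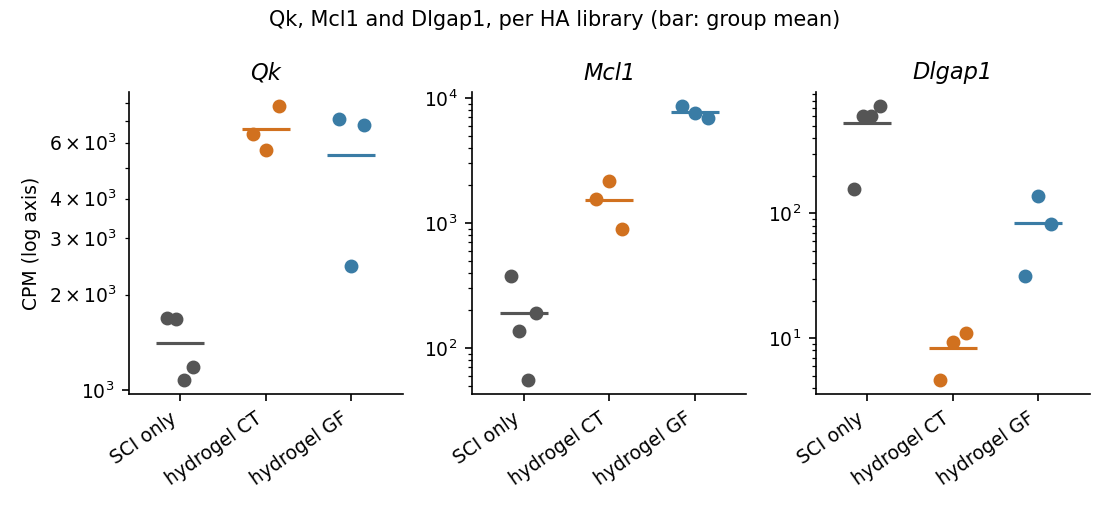
Level of Qk, Mcl1 and Dlgap1 in each HA library (CPM, log axis), by group, with a bar at the group mean. The 3 hydrogel CT points lie above all 4 SCI only points for Qk and Mcl1 and below them for Dlgap1.

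Whether these genes passed the threshold depended on which libraries were in the fit. Without SCI only library 9843, 9874 or 9935, or hydrogel CT library 1724 or 1759, no gene passed (edgeR, unadjusted p below 0.05 for 592 to 757 genes, against 789 with all libraries). Mcl1 and Dlgap1 were among the genes that passed without library 9596 (0.0319% of the genes tested higher, 0.016% lower), and Mcl1 was among those that passed without 1762 (0.0293% higher). The adjusted p over these 7 fits ranged from 0.0616 to 0.25 for Qk, 0.0144 to 0.25 for Mcl1 and 0.0144 to 0.24 for Dlgap1 (edgeR). Over the same fits the log2 differences kept their direction, at 2.08 to 2.34 for Qk, 2.67 to 3.61 for Mcl1 and -6.27 to -5.61 for Dlgap1. In the authors' deposited table, which tests transcripts, 106 of 9809 transcripts outside the ribosomal RNA loci had a false discovery rate below 0.05 upward and 30 downward. Its log2 fold changes were 3.09 for Mcl1, 2.46 and 1.29 for the 2 Qk transcripts (FDR 0.000513 and 0.324), and -6.13 and 1.05 for the 2 Dlgap1 transcripts (FDR 3.69e-06 and 0.846). The latter Dlgap1 transcript had 2 counts in 1 SCI only library and 28 in hydrogel CT library 1762.

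The next 9 protein-coding genes with the smallest p among those higher without overlap did not pass the test (edgeR adjusted p from 0.0673 to 0.12). Each of the 9 passed when the fit held the compared groups alone (edgeR adjusted p from 0.00708 for Fmn2 to 0.0382 for Cpe). Fabp7, a fatty acid binding protein of radial glia and immature astrocytes, stood at 428, 359, 109 and 66.3 CPM in the SCI only libraries and 6066, 1503 and 1001 CPM in the hydrogel CT libraries. Its spread within hydrogel CT was wide, library 1724 being the highest. The log2 difference of Fabp7 was 3.56 (SE 0.71) as tested, 2.20 (SE 0.67) corrected and 2.38 without library 1724. Cpe, a carboxypeptidase that trims secreted peptides, was at 8499, 4850, 2211 and 7312 CPM with SCI only and 14795, 15235 and 30913 CPM with hydrogel CT. Its log2 difference was 1.83 (SE 0.38) as tested and 1.56 (SE 0.42) corrected.

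Fmn2, an actin nucleator of the formin family, and Hoxc8, a homeobox gene of the thoracic cord, kept their difference under the GC correction. Fmn2 was at 116, 125, 224 and 153 CPM in the SCI only and 720.1, 1313 and 2163 CPM in the hydrogel CT libraries (log2 difference 3.18, corrected 3.07). Hoxc8 was at 171, 246, 90.3 and 87.0 CPM and 1801, 799 and 1053 CPM (log2 difference 3.03, corrected 2.92). In the fit of the compared groups alone with the correction, Fmn2 and Hoxc8 were among the 5 higher genes that passed (edgeR adjusted p = 0.0192 and 0.0379), as were Cat and Vamp2, and the 2 lower genes that passed were Dlgap1 and Ppp4c (0.0892% and 0.0357% of the genes tested). Cat encodes catalase, which breaks down hydrogen peroxide, and stood at 342, 136, 207 and 137 CPM with SCI only and 2228, 1347 and 2432 CPM with hydrogel CT. Vamp2, a vesicle fusion protein, stood at 396, 258, 261 and 286 CPM and 773, 483 and 2155 CPM in the same order. Cat and Vamp2 were named here after their values were seen. Dlgap1 and Ppp4c had too few counts in hydrogel CT for the count filter and entered that fit only through the SCI only libraries.

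The differences of Chpt1, Ppp1cb, Tmem229a and Cldnd1, like that of Fabp7, were smaller with the correction. Chpt1, the last enzyme of a phosphatidylcholine pathway, had the lowest GC content of the 12 higher genes, 37.9%. Its values were 29.0, 20.3, 20.1 and 45.6 CPM with SCI only and 162, 383 and 829 CPM with hydrogel CT, and its log2 difference went from 4.01 to 1.92. The catalytic subunit Ppp1cb of protein phosphatase PP1 went from 3.23 to 1.72, the membrane protein Tmem229a from 2.66 to 1.81, and the claudin-domain protein Cldnd1 from 3.72 to 2.67. After division by the GC trend, 11 of the 12 higher genes still did not overlap, Chpt1 being the exception. Exons of Chpt1 and Ppp1cb overlap those of other genes (Sycp3 and Gm43312), whose reads may be shared.

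Among the 11 further lower genes named by the same rule none passed (edgeR adjusted p from 0.12 to 0.144), and 10 passed in the fit of the compared groups alone, Ckb being the exception (edgeR adjusted p = 0.0504). Lrrc4b, a synaptic adhesion protein with leucine-rich repeats, was at 369, 542, 517 and 584 CPM in the SCI only libraries and 25.7, 32.1 and 53.3 CPM in the hydrogel CT libraries. Its GC content was 63.1% and the log2 difference went from -3.76 to -2.10 on correction. Mag, a sialic acid-binding adhesion protein of myelin, stood at 754, 1619, 1634 and 891 CPM and 225, 264 and 40.3 CPM (log2 difference -2.80, corrected -1.81). Gpr17, a receptor of differentiating oligodendrocyte progenitors, stood at 701, 848, 973 and 568 CPM and 197, 139 and 33.2 CPM (log2 difference -2.65, corrected -2.31). For both, library 1762 was the lowest of all 7, as it was for the summed progenitor markers.

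Rpsa, a protein of the small ribosomal subunit, was at 1828, 2991, 3052 and 2788 CPM with SCI only and 709.8, 1033 and 612 CPM with hydrogel CT, with a log2 difference of -1.76 (SE 0.43) that was -1.87 after correction. Ckb, the brain creatine kinase, was at 13597, 9394, 13793 and 18374 CPM and 3081, 6848 and 6981 CPM. The groups did not overlap for Ckb as counted, but at a GC content of 60.0% its log2 difference went from -1.29 to -0.07 on correction, and the corrected libraries overlapped. Ppp4c, the catalytic subunit of phosphatase PP4, had 126, 62, 107 and 75 counts in the SCI only libraries and 16, 18 and 5 in the deeper hydrogel CT libraries. Ap1s1, an adaptor protein of clathrin coats, had 100, 36, 92 and 84 and 16, 34 and 14 counts. Gpc1, a heparan sulfate proteoglycan, had a level of 246, 232, 523 and 1044 CPM and 9.57, 39.6 and 24.3 CPM.

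The last 3, Junb, Plin4 and Filip1l, rest on few reads. Junb, an immediate early transcription factor, had 16, 1, 7 and 35 counts in the SCI only libraries and 1, 1 and 1 in the hydrogel CT libraries. Plin4, a lipid droplet coat protein, had 49, 15, 38 and 11 and 2, 4 and 1, and Filip1l, a filamin-interacting protein, 31, 36, 37 and 51 and 8, 18 and 13. With so few counts in hydrogel CT, Junb, Plin4 and Filip1l passed the count filter only through other groups and had to be lower with hydrogel CT. The same held for Dlgap1, Ap1s1 and Ppp4c, and Gpc1 fell short of the filter in library 1724. Relative to the counts at the ribosomal RNA loci, 1 of the 12 lower genes (Ppp4c) was still lower without overlap, 2 (Rpsa and Ckb) were higher and 9 overlapped. All 12 higher genes were higher on that scale too, on which the hydrogel CT libraries have the smaller denominator. Exons of Gpc1, Gpr17, Junb, Plin4 and Rpsa overlap those of Ankmy1, Lims2, Prdx2, Hdgfl2 and Gm24044.

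**Figure D3:**
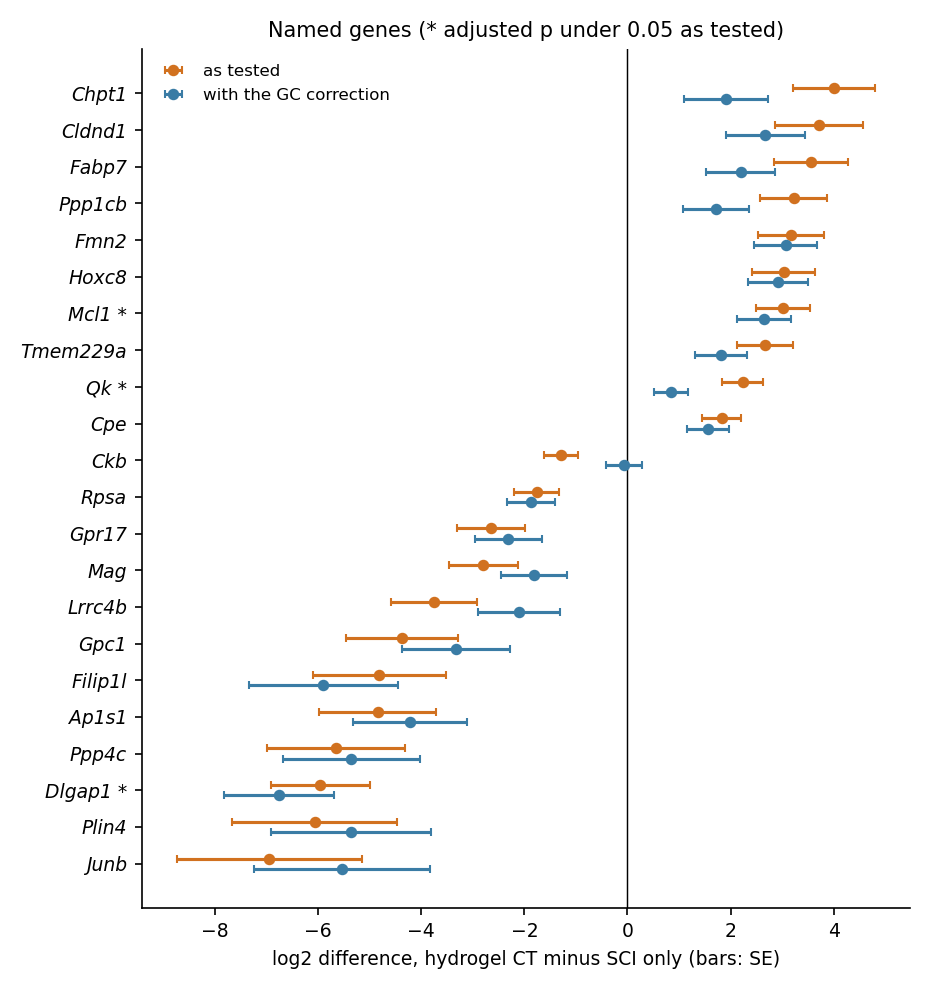
Log2 difference between hydrogel CT and SCI only (x axis, bars: SE) for the named genes, as tested and with the GC correction, with an asterisk at Qk, Mcl1 and Dlgap1, which passed the test. The correction brings Ckb close to 0 and lowers Qk and Chpt1, while Fmn2 and Hoxc8 keep their size, and the fitted values of Junb and Plin4 rest on 1 to 4 counts per hydrogel CT library.

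Genes of glutamate handling had the highest median of the lists with at least 10 tested genes, 1.91 on the log2 scale over 10 genes, against 0.19 for all genes tested. None passed the test, 5 were higher without overlap and 1 lower. Slc1a2, the main glutamate transporter, was at 5403, 3996, 4456 and 5394 CPM in SCI only libraries 9596, 9843, 9874 and 9935 and 9287, 10603 and 27500 CPM in hydrogel CT libraries 1724, 1759 and 1762. The lowest hydrogel CT library was above the highest SCI only library, and 1762 stood out (log2 difference 1.71, SE 0.40, edgeR adjusted p = 0.12). The corrected difference of Slc1a2 was 1.16, and after division by the GC trend its libraries overlapped. Slc1a3, the other astrocyte transporter, had 4, 5, 3 and 1 counts with SCI only and 936, 224 and 1283 with hydrogel CT, where the depth was also greater. Its log2 difference of 4.94 (SE 1.18, edgeR adjusted p = 0.122), 4.16 after correction, rests on those few SCI only counts. Glul, glutamine synthetase, overlapped (2721, 2375, 2456 and 3787 and 2627, 3277 and 8782 CPM).

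Glud1, glutamate dehydrogenase, was at 769, 452, 650.5 and 1027 CPM and 3425, 1045 and 4897 CPM without overlap (log2 difference 2.11, corrected 1.61), but overlapped after division by the trend. Of the 10 genes tested, 4 had fewer than 10 counts in every SCI only library, Slc1a3 among them. Such genes entered the test only through deeper groups and had to be higher there, so the list's count and median are no support for a difference. With the correction the median was 1.34, against -0.07 for all genes, and 3 were higher without overlap, Slc1a3 and the glutamate receptor Grm5 among them.

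The list of gap junction, potassium and water homeostasis genes had a median of 1.48 over 10 tested genes. None passed, and 5 were higher and 0 lower without overlap. The water channel gene Aqp4 varied little with SCI only, at 2332, 2340, 2381 and 2440 CPM, and stood at 5161, 6299 and 10507 CPM with hydrogel CT. Its log2 difference was 1.63 (SE 0.37, edgeR adjusted p = 0.12), but at a GC content of 41.4% the corrected value was 0.08. The connexin Gja1 was at 308, 472, 383 and 667 CPM and 1441, 1026 and 2229 CPM (log2 difference 1.78, corrected 0.66). The second connexin, Gjb6, was at 349.7, 284, 291 and 418 CPM and 787, 1372 and 2308 CPM (log2 difference 2.15, corrected 1.88). Slc4a4, a sodium bicarbonate cotransporter, was at 805, 921, 769 and 1251 CPM and 4132, 1720 and 4402 CPM (log2 difference 1.87, corrected 0.97). Kcnj10, the potassium channel, overlapped at 2174, 2702, 2329 and 2871 CPM and 2689, 5046 and 6650 CPM. With the correction the list median was 0.66, and 2 of the 5 remained without overlap, Gjb6 among them.

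Over the 27 tested astrocyte markers, 10 were higher and 1 lower without overlap, beside 11.8% and 6.77% of all genes, and the median log2 difference was 0.26. None passed in the fit of all 3 groups, and 7 passed upward in the fit of the compared groups alone, Slc1a2, Slc1a3, Aqp4, Gjb6, Slc4a4 and Cpe among them. After the correction 7 were higher without overlap, Slc1a3, Gjb6, Aldoc, Ntsr2, Clu and Cpe among them, and the median was 0.54. Slc1a3 had fewer than 10 counts in every SCI only library, so it entered the test only through deeper groups and had to be higher. Its place in these counts is no support for a difference. Mt1 and Mt2, the metallothioneins that lead the list by level, overlapped. Mt1 was at 35808, 36214, 44852 and 48890 CPM with SCI only and 25660, 48593 and 30326 CPM with hydrogel CT (log2 difference -0.25, SE 0.25). With the correction the direction of Mt1 turned, to 0.74 (SE 0.24). S100b, a calcium-binding protein, overlapped as well and was at 5910, 7752, 6851 and 8087 CPM and 6070, 7664 and 7473 CPM (log2 difference -0.02, SE 0.30, corrected -0.48). Agt, the angiotensin precursor, was the marker that was lower without overlap, at 792, 901, 1433 and 1479 CPM and 295, 403 and 769 CPM. The hydrogel CT library 1762 had the highest summed level of astrocyte markers of all 7 libraries and the lowest of microglial and oligodendrocyte progenitor markers.

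**Figure D4:**
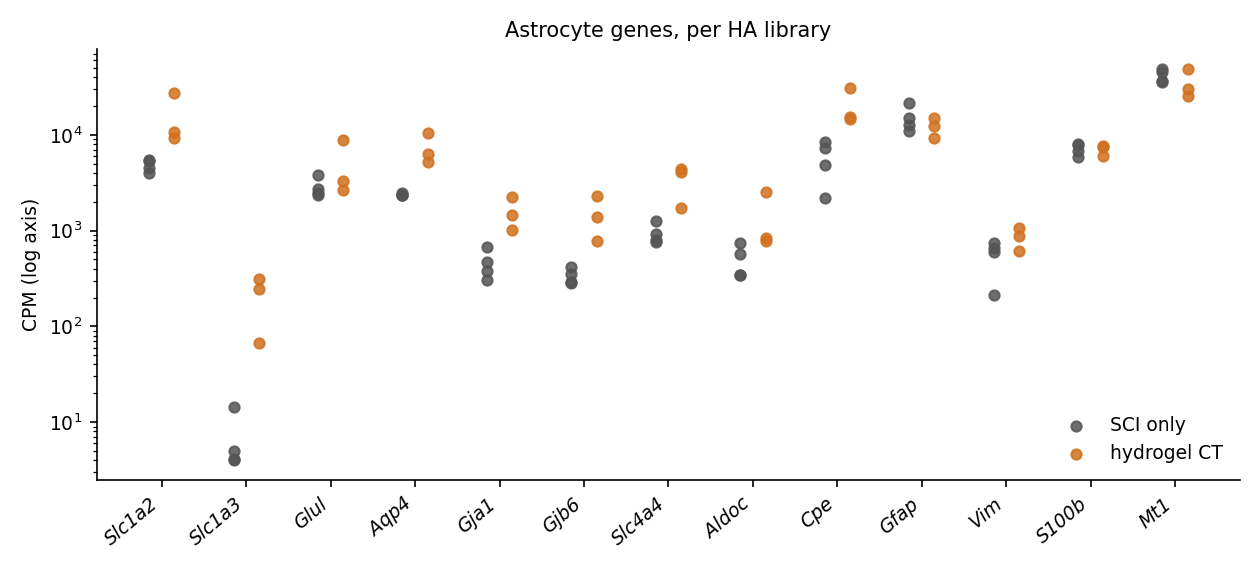
Level of astrocyte genes in each SCI only and hydrogel CT library (CPM, log axis). The hydrogel CT points lie above all SCI only points for Slc1a2, Slc1a3, Aqp4, Gja1, Gjb6, Slc4a4, Aldoc and Cpe, while Gfap, Vim, S100b, Glul and Mt1 overlap.

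Of 16 tested reactive astrocyte genes, 4 had a positive and 12 a negative difference, beside 45.2% negative of all genes tested. None passed, 1 was higher and 3 were lower without overlap, and the median was -0.41, or 0.01 after correction. After division by the GC trend, 1 was higher without overlap, the intermediate filament gene Vim, which overlapped as counted, and 3 were lower (Timp1, C4b and Socs3). Gfap, the intermediate filament of astrocytes, was at 10834, 12808, 15153 and 21618 CPM with SCI only and 9314, 12393 and 14862 CPM with hydrogel CT (log2 difference -0.31, SE 0.30, edgeR adjusted p = 0.681, corrected difference 0.04). Serpina3n, a secreted protease inhibitor, was at 9960, 5461, 8085 and 5477 CPM and 7934, 8613 and 3084 CPM (log2 difference -0.15, SE 0.37, corrected -0.03). For both, the groups overlapped. C4b, a complement component, was lower without overlap at 208, 397, 369.5 and 199 CPM and 83.5, 89.6 and 24.9 CPM, as was Socs3, a feedback inhibitor of cytokine signalling, with 51, 17, 17 and 6 counts and 30, 1 and 0 counts. Socs3 passed the count filter only through other groups, so its place among the 3 is no support for a difference. Among 10 tested chondroitin sulfate proteoglycan and tenascin genes, 1 was higher (Ptprz1) and 2 lower (Bcan and Xylt1) without overlap. Ncan, or neurocan, stood at 259.8, 434, 458 and 137 CPM and 3086, 299.8 and 665 CPM, with library 1724 far above the rest.

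Myelin genes stood on both sides. Of 19 tested oligodendrocyte and myelin markers, none fell, 2 were higher (Ugt8a among them) and 5 lower (Mbp, Mag, Cldn11, Trf and Gsn) without overlap, and the median was -0.60. After the correction it was -0.83, with 2 higher (Qdpr among them) and Mbp, Mag, Opalin and Trf lower. Mbp, myelin basic protein, was at 57.9, 98.5, 68.6 and 62.1 CPM with SCI only and 40.9, 20.9 and 17.2 CPM with hydrogel CT (log2 difference -1.44, SE 0.99, corrected -1.49). Cldn11, the claudin of myelin tight junctions, was at 1434, 1231, 1050 and 2038 CPM and 551, 974 and 165 CPM. Mobp overlapped, at 2972, 4425, 3752 and 2531 CPM and 4245, 3290 and 4161 CPM. Of 11 tested progenitor markers, 0 were higher and 3 lower without overlap (Gpr17, Olig1 and Nkx2-2), with a median of -0.63, or 0.08 after correction. Olig1, a lineage transcription factor with a GC content of 61.1%, was at 3887, 3846, 3659 and 3024 CPM and 1803, 2216 and 1674 CPM and had a log2 difference of -0.93 as tested and 0.46 corrected, where it was higher without overlap.

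Immune genes had the lowest medians of the lists with at least 10 tested genes. Over 14 tested microglia and macrophage markers the median was -1.53 (-1.33 corrected), with 0 higher and 1 lower without overlap. That marker was C1qa, a complement component, at 138, 452, 1441 and 215 CPM with SCI only and 10.2, 50.5 and 0.193 CPM with hydrogel CT (log2 difference -4.79, SE 1.33, edgeR adjusted p = 0.159, corrected difference -3.53). With 31, 167 and 1 counts in hydrogel CT, C1qa passed the count filter only through other groups, so it is no support for a difference. Lyz2, the lysozyme of macrophages, overlapped at 355, 1584, 3185 and 634 CPM and 969, 424 and 93.2 CPM, with 9874 highest and 1762 lowest. The marker sum had the same order at its ends, and its part in the immune genes below was not tested. The 14 tested antigen presentation and interferon genes had a median of -1.40 (-1.55 corrected), with 0 higher and 4 lower without overlap (Bst2, Ifi27, Isg15 and Tapbp). Ifi27 had 10, 4, 17 and 2 counts with SCI only and 0, 0 and 1 with hydrogel CT. It passed the count filter only through other groups, so its place among the 4 is no support for a difference. Bst2 fell short of that filter in hydrogel CT library 1724, with 29 counts. Bst2, an interferon-induced membrane protein that tethers virions, was at 658, 524, 751 and 385 CPM and 9.57, 80.8 and 56.4 CPM, and Bst2 and Tapbp passed in the fit of the compared groups alone (edgeR adjusted p = 0.0216 and 0.0471). Tapbp, which loads peptides on MHC class I, was at 227, 127, 833 and 253 CPM and 51.8, 55.4 and 50.2 CPM. B2m, the light chain of MHC class I, overlapped at 397, 394, 1182 and 634 CPM and 949, 579 and 2905 CPM. Lysosomal genes had a median of -0.81 over 15 tested, with 1 higher and 2 lower without overlap. Ctsb and Lamp1, a protease and a membrane protein that lead this list by level, overlapped.

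Mitochondrial energy metabolism was covered by 2 lists. Of all genes tested, 11.8% were higher and 6.77% lower without overlap, or 6.32% and 5.33% after division by the GC trend. Of 50 tested nuclear-encoded oxidative phosphorylation genes, 37 had a positive and 13 a negative difference, beside 54.8% positive of all genes tested. None passed, 12 were higher and 1 lower without overlap, and the median was 0.54 (0.42 corrected, with 10 higher and 0 lower). Uqcrb, a subunit of complex III, was at 42.0, 8.69, 20.1 and 29.0 CPM with SCI only and 343, 130.1 and 323 CPM with hydrogel CT (log2 difference 3.39, corrected 2.00). Sdha, the flavoprotein of complex II, was at 228, 345, 172 and 203 CPM and 501, 639.9 and 1516 CPM (log2 difference 1.90, corrected 1.49). Of 14 tested fatty acid oxidation genes, 4 were higher and 0 lower without overlap, and 3 of the 50 and 2 of the 14 had fewer than 10 counts in every SCI only library, so they entered the test only through deeper groups. Of 26 metallothionein and antioxidant genes, 3 were higher, Cat among them, and 1 lower. Of 13 glycolysis and creatine kinase genes, 2 were higher (Aldoa and Aldoc) and 3 lower (Pfkl, Gapdh and Ckb) without overlap. Aldoc, the astrocyte aldolase, was at 565, 345, 343 and 733 CPM and 787, 844 and 2517 CPM. Of 37 tested proteasome and ubiquitin genes, 10 were higher and 1 lower (median 0.71, corrected 0.39), and 3 were higher after the correction (Psmd12, Ube2e3 and Ubb). Of those 37, 5 had fewer than 10 counts in every SCI only library.

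The median of the RNA processing genes changed sign with the correction. Counts in this paragraph stand beside 11.8% higher and 6.77% lower of all genes tested, or 6.32% and 5.33% after division by the GC trend. Of 29 tested splicing factors and hnRNPs, Qk rose, 7 were higher and 0 lower without overlap, and the median was 1.16 at a median GC content of 42.0%, with 4 of the 29 below 10 counts in every SCI only library. After correction the median was -0.22 and 3 stayed higher (Hnrnpa2b1, Hnrnpr and Qk). Hnrnpa2b1, an RNA-binding protein of splicing and transport, was at 514, 130.3, 100.3 and 339.7 CPM with SCI only and 1287, 1025 and 2436 CPM with hydrogel CT. Of 57 cytosolic ribosomal protein genes, 4 were higher and 4 lower without overlap, with a median of 0.04. Of 30 translation factors, 5 were higher and 2 lower (Eef2 and Eif4h). After division by the GC trend 0 were higher, Eef2 and Eif4h were no longer apart, and 2 other genes were lower (Eif4a2 and Eif4g2). The initiation factor Eif1ax (GC 39.7%) was at 168, 86.9, 33.4 and 70.4 CPM and 434, 657 and 535 CPM, and the elongation factor Eef2 (GC 57.0%) was at 980.1, 1801, 1834 and 1607 CPM and 630.0, 539 and 294 CPM.

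The counts of signalling genes are to be read beside 11.8% higher and 6.77% lower without overlap of all genes tested. After division by the GC trend these shares were 6.32% and 5.33%. Of 15 tested FGF and EGF receptor and feedback genes, 4 were higher and 0 lower without overlap (Egfr, Fgf1, Spred1 and Errfi1), and 1 was after correction (Errfi1). The feedback inhibitor Errfi1 had 1, 0, 0 and 0 counts with SCI only and 77, 60 and 52 with hydrogel CT, and was tested only because of the deeper groups. Of 13 immediate early and stress genes, 2 were lower (Junb and Jund) and 0 higher, with a median of -0.88. Junb, at 1 count in each hydrogel CT library, was tested only because of other groups. Jund, a partner of the AP-1 factors, had a log2 difference of -1.05 as tested and 1.05 corrected, at a GC content of 67.1%. Of 19 Notch, BMP and TGF-beta genes, 2 were higher (Id2 and Bmpr1a) and 2 lower (Id3 and Smad7), and none of the 19 stood apart after the correction. The median of that list was 1.27, and 0.26 corrected. Of the 19, 2 were tested only because of the deeper groups and had to be higher, which can raise that median. Proliferation genes had 2 higher and 1 lower of 16. Of 20 cholesterol and lipoprotein genes, 5 were higher and 1 lower (median 0.11, corrected 0.06). The synaptic scaffold and adhesion genes, of which Dlgap1 fell, had 3 higher (Ncam1 and Cadm2 among them) and 3 lower (Dlgap1, Lrrc4b and Lrrc4) of 11 without overlap. Dlgap1 passed the count filter only through other groups. The median of this list went from 1.43 to -0.30 on correction. Of these 11, 2 were tested only because of the deeper groups and had to be higher. This can raise the list's count of higher genes and its median, which are therefore no support for a difference.

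**Figure D5:**
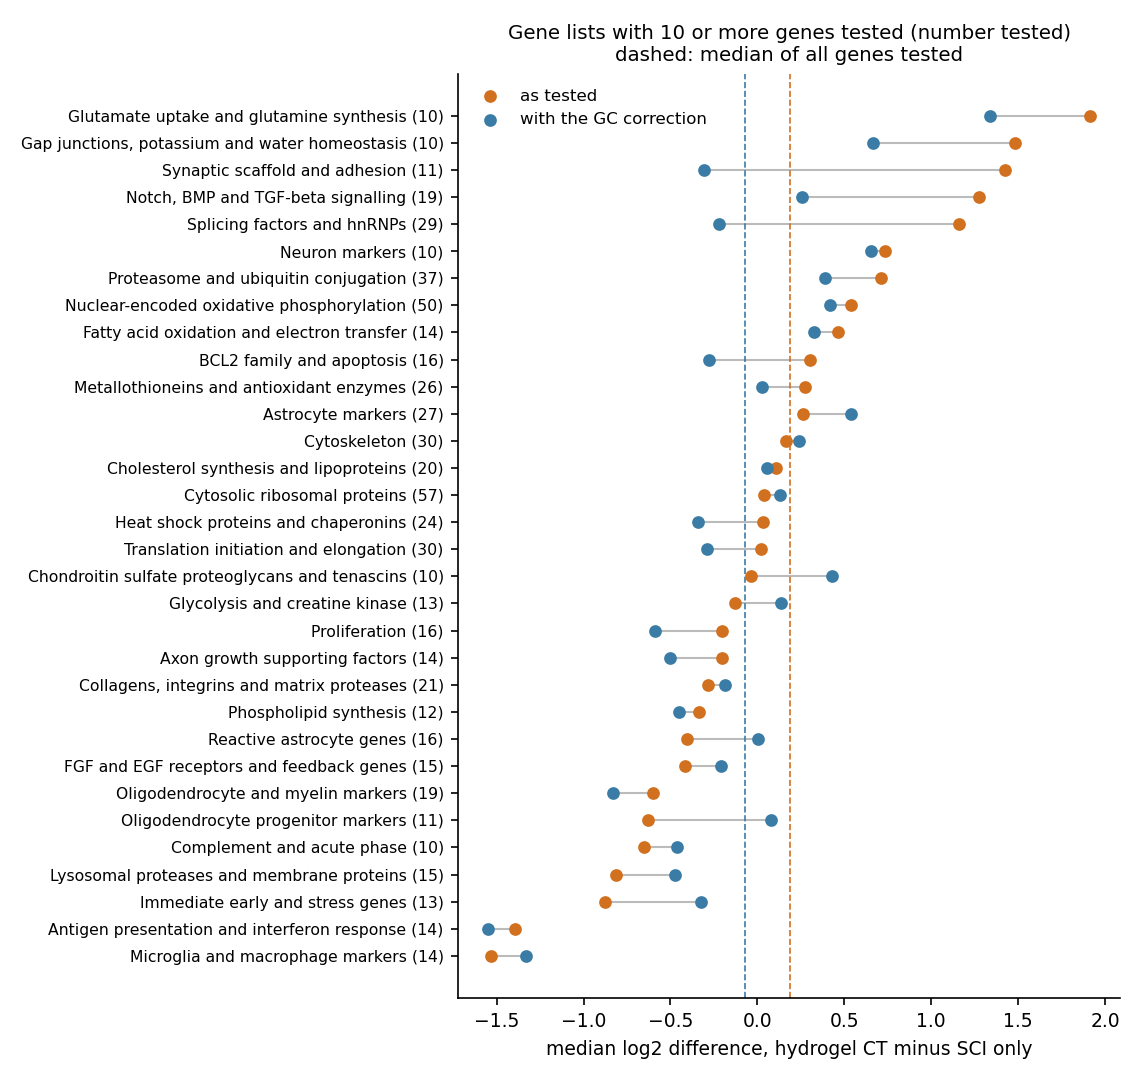
Median log2 difference between hydrogel CT and SCI only (x axis) of each gene list with at least 10 tested genes, as tested and with the GC correction, where dashed lines mark the medians of all genes tested. Glutamate genes lie highest at 1.91 and 1.34, microglial and interferon genes lowest, and the splicing list moves from 1.16 to -0.22.

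Levels in hydrogel GF and in the flow-through were set beside these, without a test. Hydrogel CT and GF libraries share the SCI only libraries as controls. In hydrogel GF, Cpe was at 23540, 28533 and 19350 CPM, within the hydrogel CT range. Fabp7 was at 329, 663 and 394 CPM and Ppp1cb at 188, 169 and 189 CPM there, below every hydrogel CT library. Ckb was at 9950, 13083 and 10568 CPM. Flow-through libraries held 28161 to 264952 counts outside the ribosomal RNA loci with SCI only (4 libraries) and 4249 to 41658 with hydrogel CT (4 libraries), so 3 counts there were worth 15.1 to 121 CPM and 91.2 to 421 CPM. Dlgap1 was at 181, 391, 338 and 603 CPM in the SCI only flow-through and had no count in the 4 hydrogel CT flow-through libraries, which allows the 91.2 to 421 CPM just given. Rpsa was at 11010, 21905, 25227 and 21017 CPM and 842, 4005, 3619 and 2077 CPM, without overlap, as in HA. Qk in the flow-through was at 3028, 1743, 1647 and 1125 CPM and 4632, 2617, 5323 and 3692 CPM and Mcl1 at 615, 916, 471 and 281 CPM and 140.4, 2563, 4745 and 865 CPM, and both overlapped there.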

How the data were processed

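Per the labels' protocols, cDNA was amplified from HA and flow-through RNA with a NuGEN kit and sequenced as paired ends. Counts per transcript were made by the authors, whose processing notes name CASAVA 1.8.2, edgeR and mm10. For the aligner, counter, strand setting and annotation, nothing is given in the sources used here. Their log2 fold changes and p-values (FDR) per transcript, deposited with the counts, are printed only where named as theirs. For the HA table, counts were summed by gene symbol. Of its 10389 rows, 136 held no symbol (0.00272% to 0.101% of a library's counts) and were left out, as were the ribosomal RNA loci and 45 per-sample columns. GENCODE M21 (mm10) gave biotypes, coordinates and GC content, the mean over a gene's listed transcripts (98.3% of rows matched, and 91.9% of genes had 1 transcript). Overlapping and antisense genes cannot be told apart.

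The quasi-likelihood test of edgeR 4.0.16 (R 4.3.3, TMM) was fitted to the 10 HA libraries of 3 groups on genes passing its filter at a minimum count of 10, with Benjamini-Hochberg adjustment at 0.05. CPM are counts per 1000000 counts outside the ribosomal RNA loci, TMM-scaled. The SE of a log2 difference is not a model output. It is the size of the difference divided by the square root of the test's F statistic. The GC correction subtracts a loess trend (span 0.5) per library, on log2 CPM with a prior count of 2. Alternatives were DESeq2 1.42.0 (its size factors or its test), other filters, the compared groups alone, the ribosomal RNA loci kept, the GC correction, and each library left out. The fit of the compared groups alone with the GC correction, and the overlap after division by the GC trend, were added after seeing the data. The fits were tested on simulated data with 200 changed genes.

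Genes and the 39 lists were chosen with earlier results of these data known. Named genes are, in each direction, the protein-coding genes past the threshold and then, up to 12, those of smallest p without overlap, and per list the 2 members of highest mean CPM and the 2 of smallest p. Further list members named for being without overlap, and Slc1a3, Gja1, Gjb6, Slc4a4, Kcnj10, S100b, Agt, Ncan, Mbp, Cldn11 and Tapbp with their values, were chosen after these were seen. Some genes that enter the counts are not reported here by name.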

Additional observations from a re-analysis of the deposited data

Results flagged for a closer look

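Junb, an immediate early gene, stood at 145 CPM in SCI only library 9935, far from the other 3 libraries of that group at 16.0, 2.90 and 11.7 CPM. The gap exceeded Dixon's 95% critical value for 4 samples, which chance passes in about 1 of 20 groups. That library is the shallowest, and its value rests on 35 counts.

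Rows that carry no gene symbol, which entered no comparison, held 0.0816% of the counts with hydrogel CT (mean, SD 0.0166, n = 3) and 0.00453% with SCI only (SD 0.00177, n = 4). All 3 hydrogel CT libraries stood above all 4 SCI only libraries in this share, as they did in the share of protein-coding genes.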

How the results depend on the processing

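Against 4 genes called by edgeR at an adjusted p below 0.05, 2 were called with DESeq2 size factors, 234 by DESeq2's test, 109 with the compared groups alone, 13 without a filter on low counts, 2 with a minimum mean of 20 CPM, 13 with the ribosomal RNA loci kept, 1 with the GC correction and 7 with the compared groups and the GC correction together. Leaving out 1 library gave 0 to 3 calls, with 592 to 757 genes at an unadjusted p below 0.05. The 4 genes were called again by DESeq2's test, with the compared groups alone and without a filter. Why the counts differ was not tested. The difference in protein-coding share ranged from 26.3 to 36.2 percentage points without 1 library (exact permutation p up to 0.1, as groups this small cannot reach 0.05), against 32.2 with all. The log2 difference of Ckb was 0.011 with the compared groups and the GC correction together, against -1.29. Among the values of the 24 named genes under the alternatives, 298 kept their direction and side of the threshold, 49 passed it newly, 34 no longer did and 1 changed direction. Of the list medians, 34 moved by more than the spread between replicates and 542 did not. No paired analysis was possible because the compared HA groups share no library number. With SCI only, 1 count was worth 0.999 to 4.14 CPM, so genes of a few CPM could not be resolved there.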

Other observations

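Several gene groups gave values not described above. Of 24 tested heat shock protein and chaperonin genes, 3 were higher (Hspa4, Hspd1 and Hsph1) and 0 lower without overlap, with a median log2 difference of 0.03 and, with the GC correction, -0.34. Of 30 cytoskeleton genes, 4 were higher (Cfl2, Dynll1, Dynlt3 and Kif5b) and 3 lower (Pfn1, Cfl1 and Myh9), with a median of 0.16. Dynll1, a dynein light chain, remained higher without overlap after division by the GC trend. Of 21 collagen, integrin and matrix protease genes, 2 were higher (Itgb1 and Itgb8) and 3 lower (Itga7, Itgb5 and Timp1). Timp1, an inhibitor of matrix proteases that reactive astrocytes express, remained lower after that division. Of 14 axon growth supporting genes, 3 were higher (Sdc2, Gpc5 and Gpc6) and 0 lower, with a median of -0.21, and Gpc6, a glypican, remained higher. Of 12 phospholipid synthesis genes, Chpt1 alone was higher and none lower. After division by the GC trend 0 of them were higher and 2 lower (Etnk1 and Lpcat2). Of 7 iron storage and transport genes, 1 was higher (Ireb2) and 1 lower (Trf). Of 10 complement and acute phase genes, 0 were higher and 2 lower (C1qa and C4b), with a median of -0.65. Itga7, Lpcat2 and C1qa passed the count filter only through other groups. None of these genes passed the test with all 3 HA groups in the fit (edgeR, adjusted p below 0.05). For all genes tested, 11.8% were higher and 6.77% lower without overlap.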
